A study of Rattus norvegicus with 16 samples.

Results

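MiR-144 and miR-451 are the red blood cell microRNAs (miRNAs) of a rat array study of contrast-induced acute kidney injury (CI-AKI). They were found as rno-miR-144 and rno-miR-451 among the 350 miRNAs of the array and make up 2 of them. The array carried 2 probes for each, with 10 spots per probe. RNA of 3 rats was combined in each pool, and 4 pools were read for each of 4 groups, which were control plasma, CI-AKI plasma, control kidney and CI-AKI kidney. All 24 male Sprague-Dawley rats (250 to 300 g) went without water for 3 days and then received furosemide, a diuretic, at 10 mg/kg, so the controls share both steps with the treated rats. The CI-AKI rats were then given Omnipaque, an iodinated low-osmolar contrast medium with 350 mg iodine per ml, at 10 ml/kg into the tail vein over 5 min, and the controls the same volume of saline. Blood and kidneys were taken 8 h later. Each value is thus an average over 3 animals, and errors are those between pools, not between rats. How plasma was separated from the blood is not given in the sources used here.

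Both miRNAs are made from 1 primary transcript that the erythroid transcription factor GATA1 switches on, and both are abundant in developing and mature red cells. MiR-144 is cut out of its hairpin by Dicer, like most miRNAs, whereas miR-451 bypasses Dicer and is cut by Argonaute 2. MiR-451 is known for lowering Ywhaz, a 14-3-3 protein, which protects red cells from oxidative damage, and miR-144 for targeting the antioxidant regulator Nrf2. Since lysed red cells release miR-451 into plasma, its level relative to miR-23a, which red cells contribute little of, is in use as a measure of haemolysis.

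The mature sequences and hairpins are shown because they set the members apart: their seeds (bases 2 to 8, in capitals in the first 2 lines) differ, and their hairpins (the last 2 lines, mature miRNA in capitals) hold the mature strand in different places. The array's names carry no arm and match the RefSeq entries miR-144-3p and miR-451-5p, the arms those older names stood for. The files give no probe sequences.
miR-144: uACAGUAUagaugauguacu
miR-451: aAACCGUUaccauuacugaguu
miR-144 hairpin: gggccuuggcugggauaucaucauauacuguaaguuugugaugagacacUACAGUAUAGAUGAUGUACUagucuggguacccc
miR-451 hairpin: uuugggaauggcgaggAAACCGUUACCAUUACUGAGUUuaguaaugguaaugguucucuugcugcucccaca
In RefSeq's GRCr8 assembly, miR-144 lies at chr10:63459446-63459465 and miR-451 at chr10:63459585-63459606, both on the plus strand, in the miRNA genes Mir144 and Mir451a. Between the 2 hairpins lie 89 bases and 0 other annotated hairpins. No other miRNA among the 693 mature names of the rat table has the seed of either. In the structure predicted by RNAfold, the loop of the miR-451 hairpin (bases 35 to 38) falls inside the mature miRNA, which spans bases 17 to 38. The miR-144 loop (bases 38 to 43) lies outside its mature strand at bases 50 to 69.

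Values are given as scaled signals, in array units. To make arrays comparable, signals were set relative to the array's own 75th percentile, taken over miRNAs that every compared array detected. Signals of 2 different miRNAs share no scale, so only differences between arrays are compared. Arrays of the fourth plasma pool were weak in both groups, with 84 detected miRNAs in the control pool and 95 in the CI-AKI pool, against 156 to 211 on the other plasma arrays and 169 to 216 on the kidney arrays. Before scaling, miR-451 read 311 and 1144 on these weak arrays and 1380 to 11675 on the other plasma arrays. Plasma lay on slide 1 and kidney on slide 2, so tissue and slide cannot be told apart. Control pools filled the odd columns of both slides and CI-AKI pools the even ones, so treatment and slide column cannot be told apart either. The samples also carry letter codes, and 6 of the 8 letters stand beside opposite treatments in plasma and kidney. If a letter marks 1 set of rats, a treatment label would be wrong in 1 of the tissues; groups here follow the sample titles. Of 6 kidney tubule miRNAs listed as a check of the tissue labels, 5 were tested, and 4 of these passed as higher in kidney than in plasma in control and in CI-AKI rats. Of all tested miRNAs, 33.1% in controls and 28.7% in CI-AKI rats did so.

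MiR-451 was far more abundant in plasma than in kidney. With all 16 arrays on 1 scale, its signal in control plasma pools was 5371, 8824, 7534 and 6551 and in control kidney pools 102, 160, 160 and 221. In CI-AKI plasma pools it read 3470, 5192, 8751 and 13146 and in CI-AKI kidney pools 184, 195, 184 and 179. Every plasma pool was above every kidney pool. The kidney minus plasma log2 difference was -5.48 (SE 0.26) in controls and -5.13 (SE 0.41) in CI-AKI rats (limma with Benjamini-Hochberg adjustment over all tested miRNAs, adjusted p = 3.39e-07 and 2.23e-06). Plasma was thus 44.7-fold above kidney in controls (95% interval 29.6 to 67.5) and 35.1-fold in CI-AKI rats (18.6 to 66.1). These folds depend on the scaling. Without it the log2 difference was smaller in size, at -3.45 in controls and -3.01 in CI-AKI rats, outside these intervals. MiR-451 made up 7.04% to 21.3% of the summed signal of detected miRNAs on plasma arrays and 0.283% to 0.578% on kidney arrays.

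MiR-144 was likewise higher in plasma than in kidney. It read 53.4, 114, 110 and 55.0 in control plasma pools and 64.7, 84.6, 212 and 117 in CI-AKI plasma pools, all on the scale of 16 arrays. In kidney it read 3.59, 4.92, 4.39 and 5.72 in control and 6.20, 5.19, 4.84 and 4.02 in CI-AKI pools. Again no plasma pool overlapped any kidney pool, and detection failed only in control plasma pool 4, where the value of 55.0 is not well above background. The kidney minus plasma log2 difference was -4.08 (SE 0.31, adjusted p = 4.66e-06) in controls and -4.37 (SE 0.37, adjusted p = 3.81e-06) in CI-AKI rats (limma). As a fold, plasma stood 16.9-fold higher in controls (95% interval 10.3 to 27.6) and 20.7-fold in CI-AKI rats (11.6 to 37.2). In the level of a bulk kidney, the number of red cells, the miRNA per cell and blood left in the vessels cannot be told apart.

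**Figure D1:**
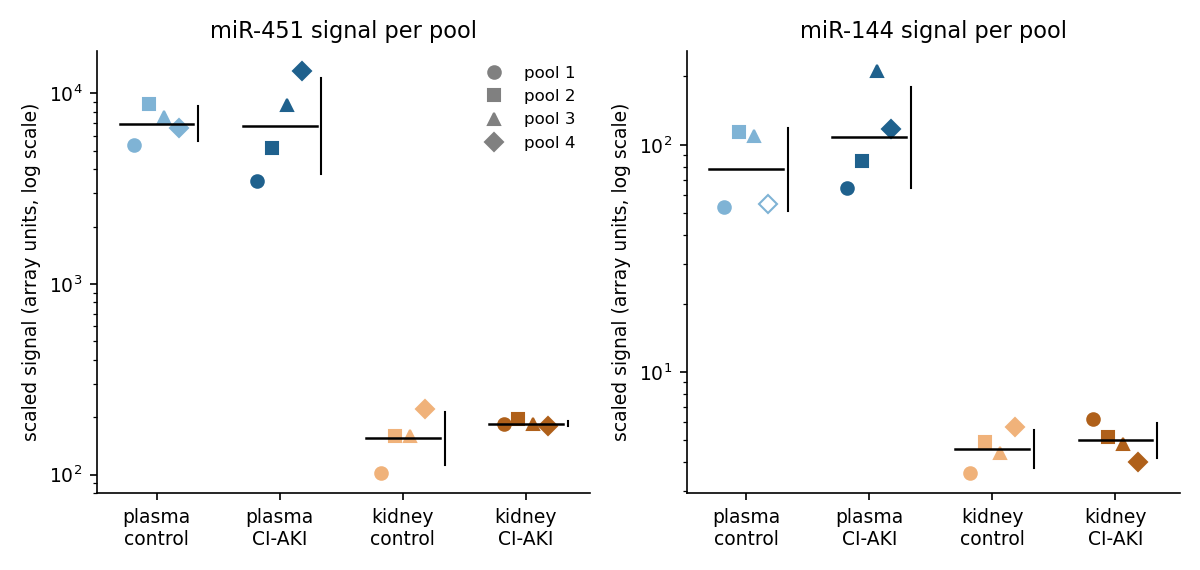
Scaled signal of miR-451 and miR-144 (log axis, array units, all 16 arrays on 1 scale) in each pool of the 4 groups; symbols mark pool numbers, horizontal lines the means and vertical lines 1 SD of the log2 values, and the open symbol the control plasma pool without detection of miR-144. The 8 plasma pools lie above the 8 kidney pools for both miRNAs, from 3470 against at most 221 for miR-451 and from 53.4 against at most 6.20 for miR-144.

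These calls stand against a large background. Of 178 miRNAs tested in controls, 77% passed, 43.8% as lower and 33.1% as higher in kidney, and the groups did not overlap for 79.2%. Of 181 tested in CI-AKI rats 72.9% passed, 44.2% as lower and 28.7% as higher, and the groups did not overlap for 72.4%. By size, 9 of 178 miRNAs had a lower difference than miR-451 in controls and 16 a lower one than miR-144; in CI-AKI rats the numbers were 10 and 14 of 181. Scaling moved the median difference of all tested miRNAs, from -0.39 to 1.35 without scaling in controls and from -0.53 to 1.50 in CI-AKI rats. Relative to that median, miR-451 stood at -5.09 in controls and at -4.81 without scaling, and miR-144 at -3.69 and -3.40. Without scaling miR-144 no longer passed (adjusted p = 0.217 in controls and 0.0601 in CI-AKI rats), while miR-451 did.

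No change of either miRNA with contrast medium was detected in plasma. On the scale of the plasma arrays miR-451 read 2600, 4287, 3786 and 3174 in control pools and 1683, 2317, 4248 and 6340 in CI-AKI pools. The CI-AKI pools held both the lowest and the highest values, and the groups overlapped. MiR-144 read 25.9, 55.4, 55.0 and 26.6 in control pools, the last one undetected, and 31.4, 37.7, 103 and 56.4 in CI-AKI pools. Here too the groups overlapped, with the highest value in CI-AKI pool 3. The log2 difference was -0.088 (SE 0.41, 95% interval -1.01 to 0.83, adjusted p = 0.959) for miR-451 and 0.43 (SE 0.43, 95% interval -0.54 to 1.39, adjusted p = 0.941) for miR-144 in limma. A change of miR-451 between 2.01-fold lower and 1.78-fold higher thus lies within the interval. Of 96 plasma miRNAs tested, 0% passed in limma, 5 had an unadjusted p under 0.05, and the groups did not overlap for 5.21%.

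The sign of the miR-451 difference in plasma was not settled. It was -1.05 with normexp background correction, 0.13 with scaling to the median, and 0.023, 0.013, 0.22 and 0.068 without control pool 2, control pool 4, CI-AKI pool 1 or CI-AKI pool 2. In the upper slide row the difference was -0.76 and in the lower row 0.58. For miR-144 these values were -0.14 and 0.99, with 2 pools per group in each row. Its plasma difference of 0.43 was 0.092 without CI-AKI pool 3.

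In kidney, neither miRNA was found to change with contrast medium. It read 216, 332, 340 and 438 in control pools and 388, 402, 364 and 385 in CI-AKI pools, on the scale of the kidney arrays. The CI-AKI values lay close together inside the range of the control values. The log2 values had an SD of 0.42 over the 4 control pools and 0.060 over the 4 CI-AKI pools, and these SDs were not compared by a test. Without control pool 1, the lowest, the control SD was 0.22. MiR-144 read 7.63, 10.2, 9.31 and 11.3 in control and 13.1, 10.7, 9.58 and 8.66 in CI-AKI pools. Its groups overlapped, with SDs of 0.24 and 0.26.

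For miR-451 the log2 difference was 0.26 (SE 0.18, 95% interval -0.15 to 0.67) and for miR-144 it was 0.13 (SE 0.15, 95% interval -0.22 to 0.47), each with an adjusted p of 0.917 in limma. Without control pool 1 these differences were 0.069 and 0.021, without control pool 4 they were 0.41 and 0.21, and miR-144 stood at 0.016 without CI-AKI pool 1. Of 176 kidney miRNAs tested, 1.7% passed, each of them higher in CI-AKI pools, and the groups did not overlap for 5.11%. Within the upper slide row the differences were 0.56 for miR-451 and 0.43 for miR-144, and within the lower row -0.042 and -0.17. The treatment difference in kidney was compared with that in plasma directly. The gap was 0.30 (SE 0.48, 95% interval -0.73 to 1.33) for miR-451 and -0.35 (SE 0.49, 95% interval -1.39 to 0.70) for miR-144, each with an adjusted p of 0.995 (limma), where 0.541% of 185 tested miRNAs passed. For miR-451 the gap was -0.019 without CI-AKI plasma pool 1 and 1.22 with normexp, and for miR-144 it was -0.022 without CI-AKI plasma pool 3.

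**Figure D2:**
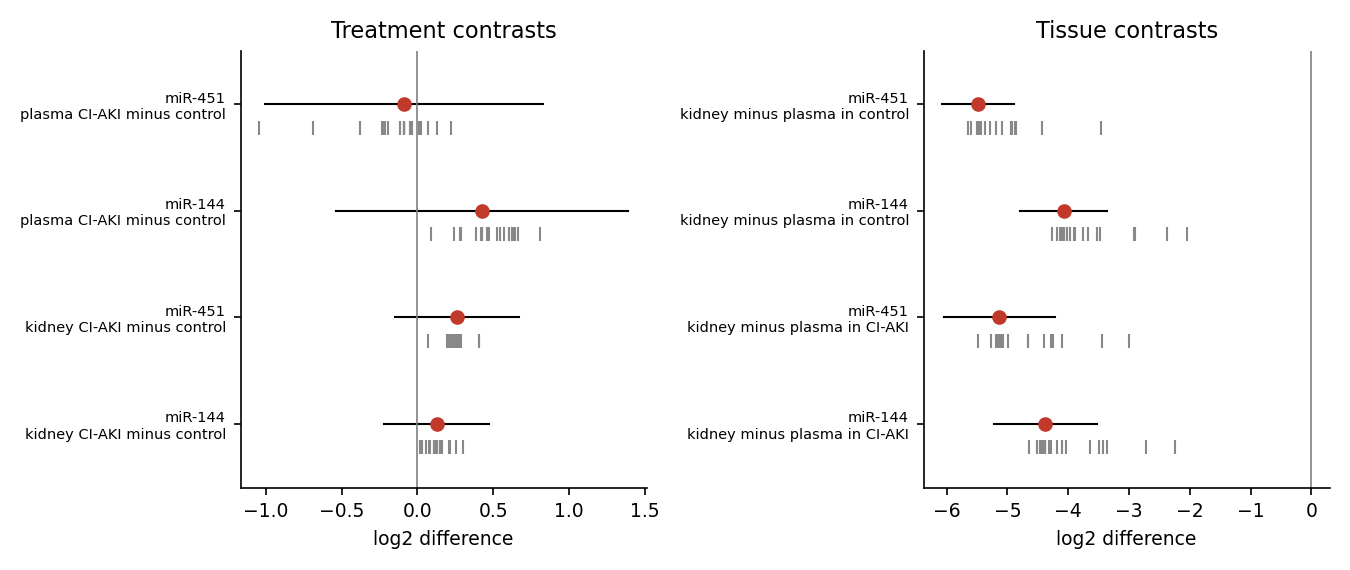
Log2 differences of miR-451 and miR-144 between treatments (left) and tissues (right): red points are the fitted values, black lines their 95% intervals, and grey ticks the values under the alternative settings and without single pools. All 4 treatment intervals include 0, while the 4 tissue intervals lie below it, between -6.08 and -3.37.

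The 2 probes of each miRNA gave similar tissue differences. Those of miR-451 read a kidney minus plasma log2 difference of -5.50 and -5.47 in controls, and those of miR-144 gave -4.14 and -4.06. The brighter miR-451 probe read 1.89 to 2.13 times the dimmer one across plasma arrays and 1.96 to 2.15 times across kidney arrays. For miR-144 this ratio was 2.82 to 4.58 in plasma and 2.76 to 5.08 in kidney. The dimmer miR-144 probe was near background in kidney, at signals of 3.06 to 6.22 before scaling, and its spots had a median coefficient of variation of 39.6% there. The brighter one had 14.9%. On the weak arrays of plasma pool 4 the dimmer miR-144 probe read 1.37 in control and 3.65 in CI-AKI. Spots of the miR-451 probes had medians of 3.34% to 5.68%. No spot of either miRNA was saturated.

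Other miRNAs that red cells hold in quantity were compared as a list of 10, of which 9 were on the array. These included miR-16, which is common to many blood cells, and miR-92a and miR-25, which belong to 1 seed family. The list includes miR-451 and miR-144 themselves. In plasma 8 were tested, of which 3 were on average above and 5 below the control pools, with a median log2 difference of -0.059 against -0.086 over all 96 tested miRNAs. Kidney had 9 tested, 3 higher and 6 lower, with a median of -0.0060 against 0.028 over all 176. None passed in either tissue, and the signs moved with the scaling: scaling to the median made 7 of 8 higher in plasma, and the percentile over all miRNAs made 9 of 9 higher in kidney. MiR-16 stood at -0.17 (SE 0.29) in plasma and -0.013 (SE 0.065) in kidney, and miR-92a at -0.18 (SE 0.28) and -0.0042 (SE 0.080).

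Between tissues, 8 of the 9 tested red cell miRNAs were lower in kidney and passed, in control and in CI-AKI rats, where 43.8% and 44.2% of all tested miRNAs did so. The list's median difference was -2.17 in controls and -2.11 in CI-AKI rats, against -0.39 and -0.53 over all tested miRNAs. MiR-451 had the lowest value in the list, followed by miR-144 and then miR-92a at -3.83 (SE 0.13) in controls and -3.65 (SE 0.26) in CI-AKI rats. MiR-16 stood at -1.92 (SE 0.097) and -1.76 (SE 0.29). MiR-185 was the exception, with differences of 1.50 (SE 0.91) and 0.54 (SE 0.30) that did not pass. The calls of the list depended on the scaling. With scaling to the median or quantile normalization, 1 of the 9 passed as higher in kidney in controls and in CI-AKI rats. With the percentile over all miRNAs, 1 of the 9 did so in CI-AKI rats only. Under each of these scalings, 8 of the 9 passed as lower in controls and 7 in CI-AKI rats. Without scaling, 5 of the 9 in controls and 4 of the 9 in CI-AKI rats were lower, and 1 of them passed in each. In CI-AKI rats 1 of the 9 also passed as higher without scaling. White cell miRNAs moved with the red cell list: of 5 tested, 5 passed as lower in kidney in controls and 4 in CI-AKI rats, with medians of -4.49 and -4.73, and their part in the differences was not tested.

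**Figure D3:**
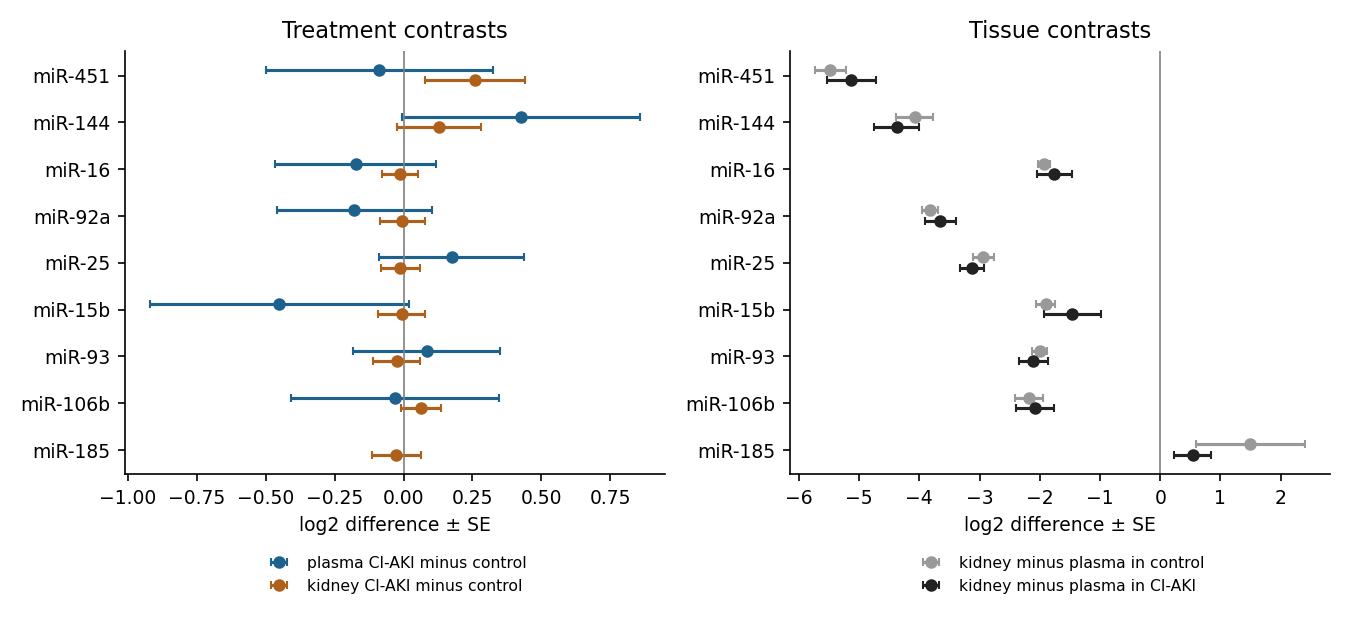
Log2 differences with SE for the red cell miRNAs, between treatments within each tissue (left) and between tissues within each treatment (right). MiR-451 and miR-144 have the lowest tissue differences, at -5.48 and -4.08 in controls; miR-185, not tested between plasma groups, lies above 0 between tissues.

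Whether miR-451 and miR-144 moved apart was asked within each array, where scaling cancels. MiR-451 read 101, 77.4, 68.8 and 119 times miR-144 in control plasma pools and 53.6, 61.4, 41.4 and 112 times in CI-AKI plasma pools. In kidney the ratios were 28.4, 32.5, 36.5 and 38.7 in control pools and 29.6, 37.5, 38.0 and 44.5 in CI-AKI pools. Because the probes differ, only the change of the ratio between arrays carries meaning. The value of 119 is no measured ratio, since miR-144 was not detected in control plasma pool 4 (2.61 before scaling). In CI-AKI plasma pool 4 miR-144 was detected, but the value of 112 rests on a weak signal (10.2 before scaling). The ratio was lower in every control kidney pool than in any control plasma pool.

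The log2 ratio in kidney minus that in plasma was -1.40 in controls (5.08 ± 0.20 against 6.48 ± 0.36, SD, n = 4; exact permutation test, two-sided, p = 0.0286, adjusted p = 0.0762 over 8 comparisons). Without control plasma pool 4 it was -1.27. Values of 0.0286 are the smallest that the 70 labellings allow. In CI-AKI rats it was -0.76 (5.21 ± 0.24 against 5.97 ± 0.61, exact permutation p = 0.0571, adjusted p = 0.114), and without CI-AKI plasma pool 4 it was -0.48. MiR-144 lay near background in kidney, as given above, and the part of this in the ratio was not tested.

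The treatment contrast of that ratio was -0.51 in plasma (exact permutation p = 0.171, adjusted p = 0.274) and 0.13 in kidney (p = 0.4, adjusted p = 0.533). In plasma, CI-AKI pools 1 to 3 lay below every control pool, and CI-AKI pool 4 lay above all detected control pools. Same-numbered pools, taken as pairs, differed by -0.91, -0.33, -0.73 and -0.083, lower in 4 of 4 pairs, the last against the undetected pool. The exact test over sign changes of these pairs gave p = 0.125, the smallest it allows, or 0.25 adjusted over both quantities. Without single pools the difference ran from -0.80 (without CI-AKI pool 4, exact permutation p = 0.0571) to -0.32 (without CI-AKI pool 3), and without control pool 4 it was -0.38. Without both weak arrays it was -0.66, with an exact permutation p of 0.1, the smallest that 20 labellings allow. It was -0.62 in the upper slide row and -0.41 in the lower.

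As the haemolysis measure, the log2 signal of miR-451 minus that of miR-23a was taken on each array. Cut-offs used for this measure in PCR do not apply to array units. Plasma pools read 0.35, 1.08, 1.06 and 0.57 in controls and 0.24, 0.54, 1.40 and 1.89 in CI-AKI rats. The 2 highest values were CI-AKI pools 3 and 4, and the lowest was CI-AKI pool 1. Controls averaged 0.77 ± 0.37 and CI-AKI pools 1.02 ± 0.76 (SD, n = 4). The CI-AKI mean was higher by 0.25, which did not pass (exact permutation test, p = 0.6, adjusted p = 0.6). After scaling, miR-23a, the subtracted term, was itself lower in every CI-AKI plasma pool (1425 to 1707) than in any control plasma pool (1813 to 2135). Its log2 difference was -0.34 (SE 0.21, adjusted p = 0.941 in limma), against -0.088 for miR-451. Before scaling its groups overlapped, at 3621, 4608, 5591 and 209 in control pools and 1169, 5029, 2829 and 308 in CI-AKI pools. The plasma groups did not overlap for 5.21% of the 96 miRNAs tested. The treatment difference of the measure, 0.25 over all plasma pools, turned to -0.10 without the weak arrays and to -0.038 without CI-AKI pool 4. The slide rows gave -0.32 (upper) and 0.83 (lower). Pool by pool, it was negative in 2 of 4 pairs.

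Kidney pools read -3.15, -2.66, -2.67 and -2.16 in controls and -2.46, -2.57, -2.43 and -2.45 in CI-AKI rats. The treatment difference was 0.18 (exact permutation p = 0.514, adjusted p = 0.588), with 0.014 without control pool 1 and 0.34 without control pool 4. Kidney was below plasma by this measure in every pool, with a difference of -3.42 in controls and -3.50 in CI-AKI rats (exact permutation p = 0.0286 each, adjusted p = 0.0762). After scaling, miR-23a itself was lower in kidney, by a log2 difference of -2.06 (SE 0.11) in controls and -1.63 (SE 0.20) in CI-AKI rats. Before scaling the tissues overlapped for miR-23a. Control kidney pools read 1712 to 2527 and control plasma pools 209 to 5591, and in CI-AKI rats the ranges were 1176 to 2764 and 308 to 5029.

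**Figure D4:**
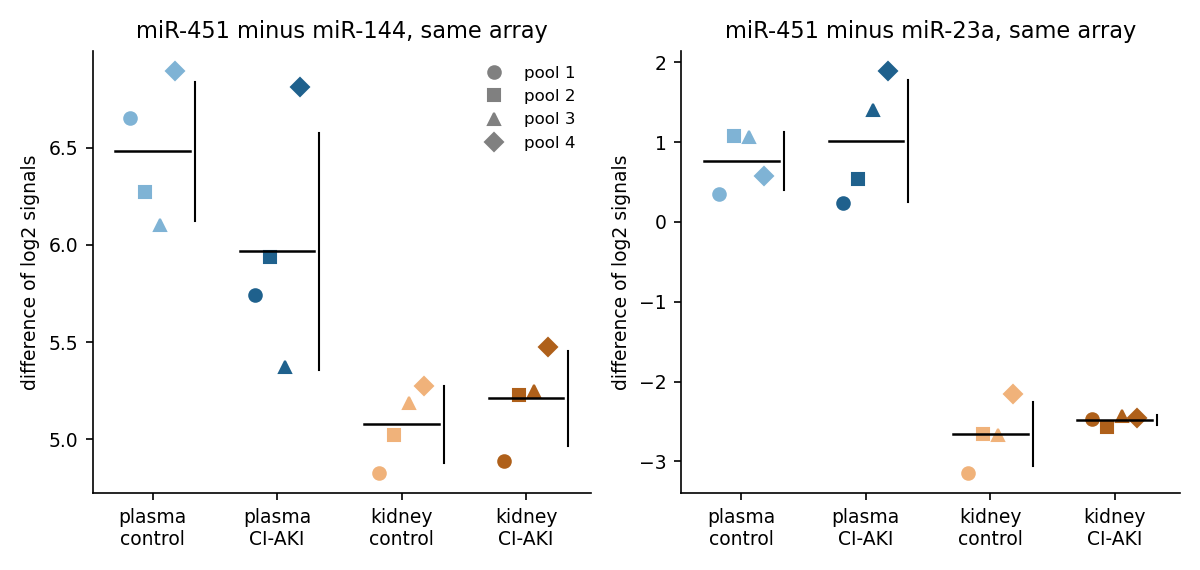
Difference of log2 signals on the same array for miR-451 and miR-144 (left) and for miR-451 and miR-23a (right), by group; symbols mark pool numbers, horizontal lines means and vertical lines 1 SD. In the right panel all plasma pools (0.24 to 1.89) lie above all kidney pools (-3.15 to -2.16). The place of 0 carries no meaning, since the probes differ.

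Across pools of a tissue, miR-144 and miR-451 tended to go together, but the relation did not pass adjustment. Over the 8 plasma pools Pearson's r of the log2 scaled signals was 0.651 (exact permutation p = 0.0785) and Spearman's rho 0.738 (p = 0.0458). Over the 8 kidney pools r was 0.721 (exact permutation p = 0.0485) and rho 0.714 (p = 0.0576). Adjusted over these 4 values, p was 0.0768 or 0.0785. Without the 2 pools farthest from the median of miR-451, r was 0.744 in plasma and 0.324 in kidney, where the pools left out were control pools 1 and 4. Leaving out these extremes also narrows the range of miR-451. Without control pool 1 alone the kidney r was 0.426 and without control pool 4 alone 0.684, so the kidney relation rests largely on control pool 1. With quantile normalization r in plasma was 0.038. Both values on an array share its scale factor. A slide row held 4 pools per tissue, too few for a correlation of its own.

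**Figure D5:**
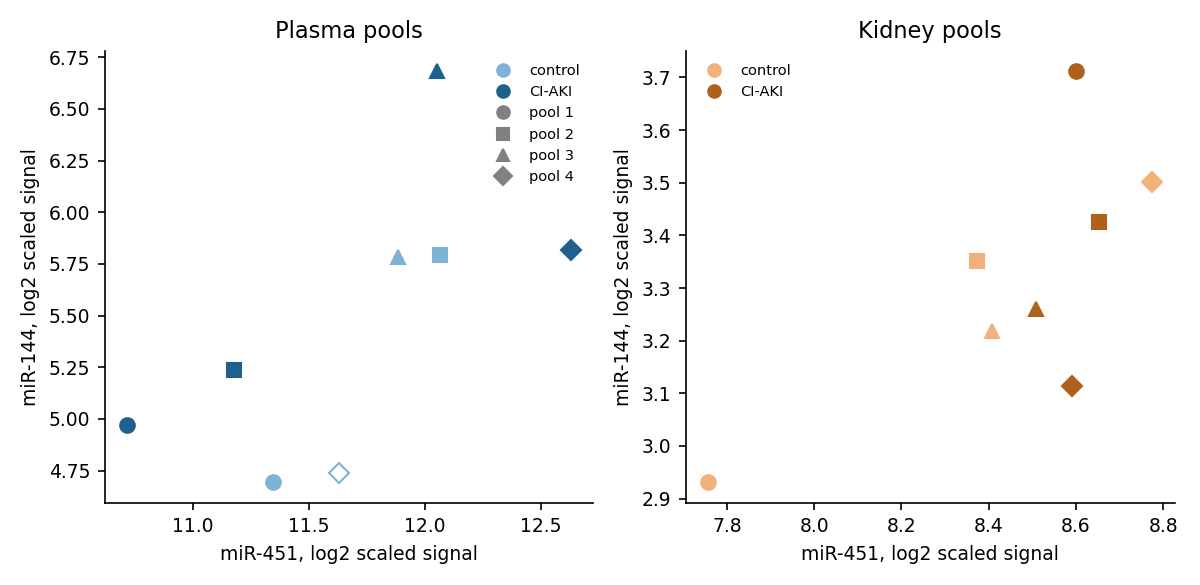
Log2 scaled signal of miR-144 against miR-451 in the 8 plasma pools (left) and the 8 kidney pools (right), coloured by treatment, with symbols for pool numbers and an open symbol where miR-144 was not detected. Control kidney pool 1 is lowest on both axes, at 7.76 for miR-451 and 2.93 for miR-144.

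MiRNAs with the pattern most like each member were ranked by Pearson's r of log2 scaled signal over the 8 pools of a tissue, as a description, since all share array and scaling. For miR-451 in plasma, among 73 miRNAs, they were miR-301a (r = 0.994), miR-142-3p (0.933), miR-16 (0.866), miR-223 (0.859) and miR-107 (0.842). MiR-142-3p and miR-223 are white cell miRNAs. For miR-144 in plasma, among 74, they were miR-106b (0.899), miR-140* (0.797), miR-142-5p (0.785), miR-29a (0.717) and miR-21 (0.692), and miR-451 came ninth. The other red cell miRNAs had a median r with miR-451 of 0.719 over 6 compared in plasma, the white cell list 0.640 over 5, and all compared miRNAs 0.105. For miR-144 the order was the other way round, with 0.424 over 7 red cell and 0.567 over 5 white cell miRNAs, against 0.149 over all.

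Kidney gave another order. For miR-451, among 162 miRNAs, the most alike were miR-30c (r = 0.800), miR-186 (0.749), the tubule miRNA miR-204 (0.733), miR-144 (0.721) and miR-151 (0.704). For miR-144 they were miR-451, miR-505 (0.682), miR-186 (0.658), miR-103 (0.648) and miR-30b-5p (0.646). The other red cell miRNAs had a median r with miR-451 of -0.158 over 8 compared in kidney, the white cell list -0.328 over 5, and all compared miRNAs -0.064. With miR-144 the medians were 0.176, -0.400 and 0.058.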

How the data were processed

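RNA labelling followed Agilent's miRNA kit, per the labels' protocols. The deposited intensity values of the 16 one-colour arrays were extracted with Agilent Feature Extraction 10.7.3.1, per the file headers. The authors also deposited log2 values; their column medians were all 2.28, and 0.048 was the largest gap between arrays at any quantile, so they are quantile-normalized, by steps not given in the sources used here.

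Processed intensities, without outlier-flagged and control spots, were averaged per probe, then per miRNA. Arrays were scaled to the 75th percentile over miRNAs detected on all arrays compared (74 in plasma, 163 in kidney, 66 and 84 between tissues, 65 over all 16), floored at a detection limit, each array's lowest detected signal taken as a median across arrays (0.976 for plasma, 1.79 for kidney) and log2 transformed. MiRNAs detected on all arrays of a compared group were fitted with limma 3.58.1 in R 4.3.3, two-sided, threshold 0.05; the fit was tested on simulated data. Within-array differences, which used unfloored signals, and correlations had exact permutation tests. Structures came from RNAfold 2.7.2, and sequences from RefSeq (GRCr8). Figures used matplotlib 3.10.9.

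The members, lists and alternatives were chosen with earlier results of these data known. Named are the members, miR-23a, up to 4 miRNAs of a list in list order, the 5 most alike per member and tissue, and miR-185 and the white cell miRNAs, chosen after their values were seen. Normexp used the median signal, since the files used here hold no mean signal, with an offset of 50. Same-numbered plasma pools deviated together (r = 0.22 to 0.62 over 96 miRNAs), so their numbers were taken as pairs; in kidney r was -0.0999 to 0.59. The number of pools limits the precision.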

Additional observations from a re-analysis of the deposited data

How the results depend on the processing

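Of 367 alternative values for 20 results, 352 kept their direction and side of the threshold, 10 changed sign, 2 lost a call and 3 gained one. Some could not change side. For the within-array results, the exact tests without pool 4 of each group or with paired pools cannot give p under 0.05. In the other exact tests, a call needed several of the 8 comparisons to reach the smallest p together. No within-array alternative had an adjusted p below 0.0571. The miR-451 difference in plasma turned to 0.13 with scaling to the median and ran from -0.38 to 0.22 without single pools and from -1.05 (normexp) to 0.22 over all alternatives. Its gap between tissues ran from -0.019 to 0.61 without single pools and up to 1.22 (normexp) over all. The miR-144 difference in plasma ran from 0.092 to 0.81 (normexp). The miR-451 to miR-144 log2 ratio differed between plasma groups by -1.86 with normexp and -1.32 in the authors' processed values (adjusted exact permutation p = 0.0571). Between tissues, normexp gave -2.37 in controls and -0.34 in CI-AKI rats. Normexp added an offset of 50 to each spot. Processed signals of the miR-144 probes were smaller, at 3.06 to 25.4 in kidney and 1.37 to 16.7 on the weak plasma arrays. The part of the offset in the normexp values was not tested. Without scaling, the tissue difference of miR-144 was -2.05 in controls and -2.25 in CI-AKI rats, no longer past the threshold. The haemolysis measure's plasma difference was -0.20 with normexp, -0.46 in the authors' processed values, -0.10 without pool 4 of each group and -0.038 to 0.51 without single pools. The correlation of the pair passed without scaling (r = 0.98 in plasma, 0.90 in kidney) and, in kidney, with quantile normalization (0.81). Without scaling, r with miR-451 was high in plasma for all the listed and most alike miRNAs, down to 0.83 for the liver miRNA miR-122. In kidney it ran down to 0.38 for miR-142-3p. For the pair in plasma r was 0.038 with quantile normalization and 0.25 in the authors' processed values. The cause of these shifts was not tested. With the replicate number as a block, plasma adjusted p was 0.725 for miR-144 and 0.899 for miR-451, and the block changed no call of either miRNA. Pairing the plasma pools for the within-array ratios, an alternative chosen after seeing the data, gave exact p = 0.125 for miR-451 to miR-144 and 0.75 for miR-451 to miR-23a. Detection on every array left miR-144 out of the plasma and control tissue fits.

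Counts over all miRNAs also moved (limma). In kidney the 3 calls became 1 with quantile normalization, no scaling or all 16 arrays in 1 fit, and 0 with normexp or detection on every array (2 and 8 at an unadjusted p under 0.05). Between tissues 137 and 132 became 57 and 83 without scaling, 73 and 64 with normexp, and 56 and 67 with detection on every array. The 1 call of the gap between tissues became 0 with quantile normalization, no scaling, normexp or detection on every array (7, 0, 0 and 2 unadjusted) and 2 without CI-AKI plasma pool 2.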

Other observations

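MiR-142-3p, a miRNA of white cells, took opposite places beside miR-451 in the 2 tissues. Its r with miR-451 was 0.933 over the 8 plasma pools, second of 73 miRNAs, and -0.761 over the 8 kidney pools, among the lowest of 162 at rank 160. Without the fourth pools the values were 0.908 and -0.719 over 6 pools each. Without scaling they were 0.995 and 0.380. MiR-16 likewise had 0.866 in plasma and -0.540 in kidney, and miR-223 had 0.859 and -0.201. Without scaling these were 0.984 and 0.708 for miR-16 and 0.987 and 0.738 for miR-223. Others stayed positive in both tissues, such as the white cell miRNA miR-150 (0.349 and 0.550) and the red cell miRNA miR-106b (0.777 and 0.378). In plasma 5 of 6 red cell and 5 of 5 white cell miRNAs compared had a positive r with miR-451. In kidney 3 of 8 and 1 of 5 did. These are descriptions over pools that share array and scaling, and no difference between the tissues was tested. The liver miRNA miR-122 had the lowest place of the listed miRNAs beside miR-451 in plasma, with r = -0.663, and -0.300 without the fourth pools.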
